A study of Mus musculus with 12 samples.

Results

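Spleen T cells of B6 mice that had received NOD bone marrow (NODtoB6, donor NOD and recipient B6) were compared with spleen T cells of NOD mice. The 4 arrays, 2 per group, were chosen by their titles from the 12 arrays of the series. Genes were kept where all 4 arrays had a value, which left 8168 of 8708 genes. NOD mice develop autoimmune diabetes spontaneously, and B6 is a common laboratory strain that does not. The blood cells that arise from the marrow have the NOD genotype in both groups. The groups differ in the host, B6 against NOD, and also in the marrow transfer itself, which the NOD mice had not undergone. Host and transfer cannot be told apart from these 4 arrays. The second marrow transfer group, spleen T cells of NOD mice given B6 marrow (B6toNOD, 2 arrays), is quoted beside selected genes. On every array of these groups the second channel was RNA of B6 spleen T cells, so each value is a log2 ratio to B6. The labels do not say how the recipients were prepared, how long after transfer the cells were taken, how many host cells remained, how old the mice were or how the T cells were isolated.

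After a marrow transfer, blood cells arise from the stem cells of the donor, whereas the stroma of the spleen, the thymic epithelium and other radioresistant cells remain those of the host. T cells of donor origin thus mature in a host thymus. Spleen preparations enriched for T cells can also hold B cells, granulocytes, macrophages and red cell precursors, and interferons induce a common set of antiviral and antigen presentation genes in nearly all of these cells.

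The arrays held values for 19862 and 19744 of 20736 probes in NODtoB6 and for 20558 and 20202 in NOD. Pearson's r across genes was 0.57 between the NODtoB6 arrays and 0.73 between the NOD arrays, with Spearman's rho of 0.65 and 0.70, and genes are not independent replicates. Between a NODtoB6 and a NOD array, Pearson's r was 0.052 to 0.22. Each array was centred on its median, so higher and lower are relative to the typical probe of the array. The NODtoB6 arrays were spread more widely, with a median absolute deviation of 0.338 and 0.382, against 0.200 and 0.256 in NOD. All values of the NODtoB6 arrays carried 3 decimals on the log2 scale and none of the NOD arrays did so throughout. The way the values were written, and any batch that goes with it, therefore cannot be told apart from the groups. The labels give the dyes of the NOD arrays (NOD RNA in Cy5, B6 RNA in Cy3) but not those of the 4 marrow transfer arrays, NODtoB6 and B6toNOD, whose direction was taken to be the same. Every sign given for these 2 groups rests on that assumption. Counts with the sign of both NODtoB6 arrays turned are given beside every gene list with a gene past the threshold. The B6toNOD arrays were not turned. The standard errors and p-values rest on the spread between replicates in a fit to all 12 arrays of the series, not only on the compared arrays. Nothing says that the replicates are separate animals, so this spread may be technical. In such bulk samples, fewer cells of a type and less RNA per cell cannot be told apart.

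Of the 8168 genes, 633 were higher in NODtoB6 than in NOD (7.75%) and 711 were lower (8.7%), together 16.5%, at an adjusted p under 0.05 (limma, Benjamini-Hochberg over 15029 genes and unnamed probes). Of all 15029 features 19.8% passed, 7.63% higher and 12.2% lower, and of the 6861 unnamed probes 23.8% passed, 7.48% higher and 16.3% lower. In 67.1% of genes both NODtoB6 values lay on one side of both NOD values, so such separation alone does not single out a gene. For comparison, 25.7% of genes differed from B6 in NODtoB6, 48.5% in B6toNOD and 7.85% in NOD, and 33.8% differed between NODtoB6 and B6toNOD and 33.2% between B6toNOD and NOD. These comparisons share arrays with each other. The median difference was 0.82 among the higher genes and -0.85 among the lower genes, on the log2 scale as are all differences below. A difference beyond 1 was seen in 239 of the higher and 271 of the lower genes. Genes with several probes on all 4 arrays were 173 of the higher and 168 of the lower genes, and in 134 and 126 of them every probe had the same sign. Among the higher genes, 117 (18.5%) had a NODtoB6 mean nearer to the B6 level than the NOD mean, and among the lower genes 215 (30.2%) did, against 31.4% of all genes tested. Most genes past the threshold thus lay further from B6 in NODtoB6 than in NOD, as the plot of group means shows. The same held for most of all genes tested, at a share near that of the lower genes. The NODtoB6 arrays were also spread more widely than the NOD arrays. The median difference over all genes was -0.03 and became -0.10 without centring, where 185 genes were higher and 461 lower, so that 28.6% of the calls were higher instead of 47.1%. Without NOD replicate 2 the count was 385 genes, without NOD replicate 1 it was 862, and a fit of only the 4 arrays called 249. Of the 111 named genes past the threshold, 78 missed it with only the 4 arrays fitted, 32 without centring and 22 after a running median along the probe order was subtracted.

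**Figure D1:**
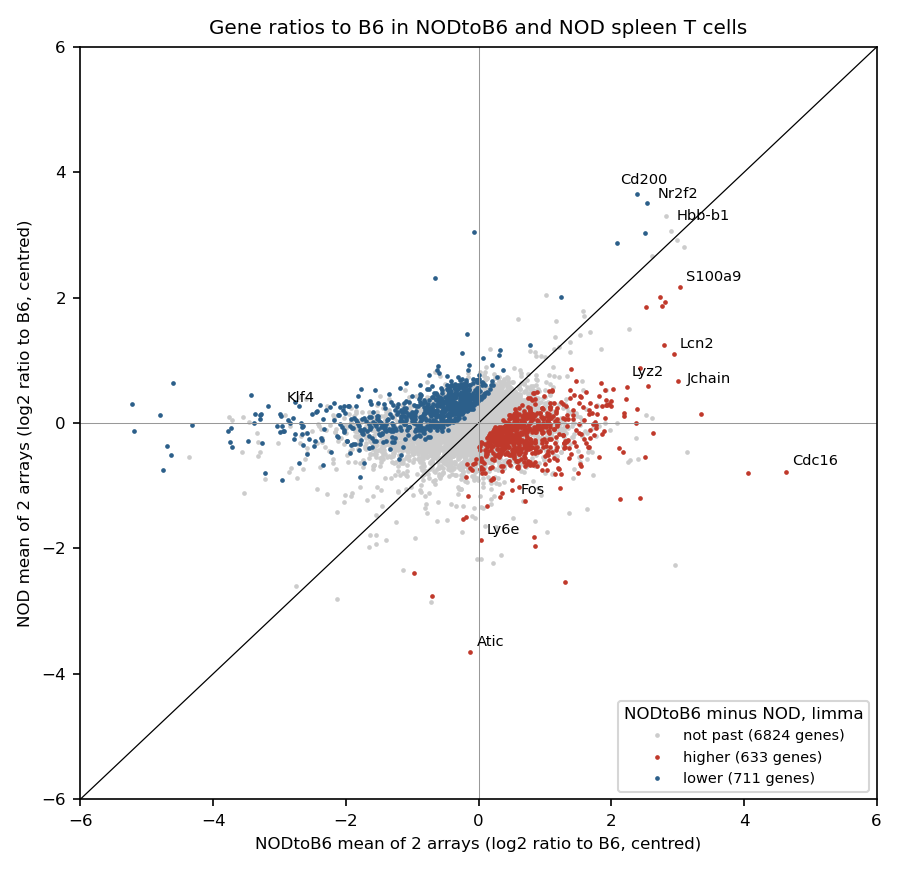
Mean log2 ratio to B6 of each of 8168 genes, centred per array, in NODtoB6 (horizontal axis) and NOD (vertical axis), means of 2 arrays each. Red points are the 633 genes higher in NODtoB6, blue points the 711 lower and grey points the genes not past the threshold, and the diagonal marks equal means. The coloured points spread along the horizontal axis, while Cd200, Nr2f2, Hbb-b1 and S100a9 lie far above 0 on both axes.

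More interferon-induced genes rose than fell in NODtoB6. Of 49 genes on the list, 21 were tested, 8 rose, 1 fell and 12 did not pass, against 7.75% and 8.7% of all genes. With the NODtoB6 arrays turned, 1 was higher and 6 lower, with a median of -0.615. As taken here, the median difference was 0.66 over the list and -0.03 over all genes, and 20 of the 21 differences were positive. The list median on each array was 0.50 and 0.53 in NODtoB6, 0.66 and 0.40 in B6toNOD and 0.09 and -0.12 in NOD. The list thus lay above the B6 level on all 4 marrow transfer arrays and around it in NOD.

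Promoter windows of 4 of the genes that rose are given because they hold matches to the interferon-stimulated response element, the sequence through which interferons are known to act on such genes. They run from 250 bases before to 50 bases after the gene start in RefSeq (build GRCm38.p6) and read 5′ to 3′ on the strand of the gene. Capitals mark the response element core, GAAA, any 2 bases and GAAA (TTTC, any 2 bases and TTTC where it lies on the other strand), and the gamma-activated site, TTC, any 3 bases and GAA, which is the same pattern on both strands. The windows are Ifitm3 at chr7:141010695-141010994 on the minus strand, Gbp2 at chr3:142620413-142620712 on the plus strand, Tgtp1 at chr11:48992197-48992496 on the minus strand and Igtp at chr11:58199306-58199605 on the plus strand.
Ifitm3: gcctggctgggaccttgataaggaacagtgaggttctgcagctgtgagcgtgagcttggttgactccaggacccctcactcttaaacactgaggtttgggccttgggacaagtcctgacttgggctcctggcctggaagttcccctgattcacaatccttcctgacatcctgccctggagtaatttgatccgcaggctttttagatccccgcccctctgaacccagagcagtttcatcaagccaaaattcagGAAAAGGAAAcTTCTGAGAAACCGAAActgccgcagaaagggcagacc
Gbp2: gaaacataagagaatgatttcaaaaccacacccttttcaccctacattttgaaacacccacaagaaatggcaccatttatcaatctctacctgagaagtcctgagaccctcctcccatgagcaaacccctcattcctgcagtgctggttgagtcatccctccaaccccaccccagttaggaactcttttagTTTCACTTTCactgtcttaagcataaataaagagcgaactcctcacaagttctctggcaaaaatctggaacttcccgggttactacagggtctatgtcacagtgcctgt
Tgtp1: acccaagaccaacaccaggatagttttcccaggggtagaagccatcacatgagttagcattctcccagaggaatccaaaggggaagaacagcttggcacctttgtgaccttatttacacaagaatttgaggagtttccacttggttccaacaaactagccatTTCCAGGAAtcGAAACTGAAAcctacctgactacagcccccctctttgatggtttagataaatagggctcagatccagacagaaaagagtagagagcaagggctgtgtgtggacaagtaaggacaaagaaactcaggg
Igtp: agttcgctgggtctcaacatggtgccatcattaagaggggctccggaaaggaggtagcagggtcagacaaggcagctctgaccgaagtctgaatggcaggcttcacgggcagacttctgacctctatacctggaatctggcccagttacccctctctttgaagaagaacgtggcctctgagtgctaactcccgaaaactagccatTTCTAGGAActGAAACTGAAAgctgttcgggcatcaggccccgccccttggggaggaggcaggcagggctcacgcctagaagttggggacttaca

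In the Ifitm3 window the response element core occurs at 2 places, and the second overlaps the gamma-activated site. Tgtp1 and Igtp each have 1 match of both motifs, and Gbp2 has the core alone. RefSeq windows were found for 17 of the 21 tested genes. The core was present in any window of 9 of these 17 genes (52.9%) and in 1131 of 32851 single windows of the same length (3.44%). The gamma-activated site was present in any window of 8 of 17 genes (47.1%) and in 8.3% of all single windows. Genes with several windows had several chances of a match, so the shares of genes and of windows are unlike measures. Of the 8 genes that rose, 7 had a window, and Ly6e had none. All 7 held the core, Ifi203 only in a further window of the same gene. These are matches of letters in a window and were not tested for binding. The list holds genes known to be induced by interferons, so its high share of matches does not depend on these arrays.

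Ly6e, which encodes a membrane-anchored surface protein, stood at 0.15 and -0.09 in NODtoB6, 1.61 and 1.44 in B6toNOD and -1.72 and -2.02 in NOD. The gene was thus near the B6 level in NODtoB6 and far below it in NOD, a difference of 1.90 ± 0.16 (SE, n = 2 arrays per group, adjusted p = 0.00094), or 3.73-fold. Ifitm3, a membrane protein that restricts virus entry, was at 2.01 and 1.80 in NODtoB6, 4.14 and 4.11 in B6toNOD and 0.22 and -0.06 in NOD. Here NODtoB6 lay above B6 and NOD close to it (1.82 ± 0.14, adjusted p = 0.00069). NODtoB6 also lay below B6toNOD for Ly6e (-1.50, adjusted p = 0.00035) and for Ifitm3 (-2.22, adjusted p = 6.3e-05). The guanylate-binding GTPase Gbp2 was at 1.76 and 2.24 in NODtoB6, 0.40 on the B6toNOD array that measured it and 0.22 and 0.32 in NOD (1.73 ± 0.19, adjusted p = 0.0035).

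The immunity-related GTPases followed. Tgtp1 was at 0.48 and 0.48 in NODtoB6, 1.57 and 0.95 in B6toNOD and -0.44 and -0.90 in NOD (1.15 ± 0.23, adjusted p = 0.013). Igtp differed by 0.90 ± 0.22, the DNA-binding protein gene Ifi203 by 0.78 ± 0.099, the proteasome activator Psme1 by 0.61 ± 0.14 and Ifitm2 by 0.47 ± 0.13, with adjusted p of 0.0048 to 0.040. The gene that fell was Irf9, the DNA-binding subunit of the factor that type I interferons activate (-0.40 ± 0.091, adjusted p = 0.022), at 0.07 and -0.02 in NODtoB6 and 0.37 and 0.48 in NOD. The immunoproteasome subunits Psmb8 and Psmb9 had differences of 1.65 ± 0.78 and 1.63 ± 0.91 and did not pass (adjusted p = 0.19 and 0.27), nor did Oas2 (1.55 ± 0.57, 0.11) and Ifitm1 (1.49 ± 0.69, 0.18). In all 4, both NODtoB6 values were above both NOD values, as the plot by array shows. Such separation, on either side, was seen in 67.1% of all genes and in 16 of the 21 tested here. The Tgtp1 call ended without NODtoB6 replicate 2 (adjusted p = 0.0505) and without NOD replicate 2 (0.090), and those of Igtp, Psme1, Ifitm2 and Irf9 without NOD replicate 2 (0.0547 to 0.212). Igtp, Psme1 and Irf9 also missed the threshold without NODtoB6 replicate 2 (0.056 to 0.103), Psme1 and Ifitm2 without NODtoB6 replicate 1 (0.0658 and 0.141) and Igtp without NOD replicate 1 (0.132), while Psmb8 and Oas2 passed with scaled arrays (0.0166 and 0.0105) and Psmb9 and Ifitm1 with only the 4 arrays fitted (0.045 each).

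**Figure D2:**
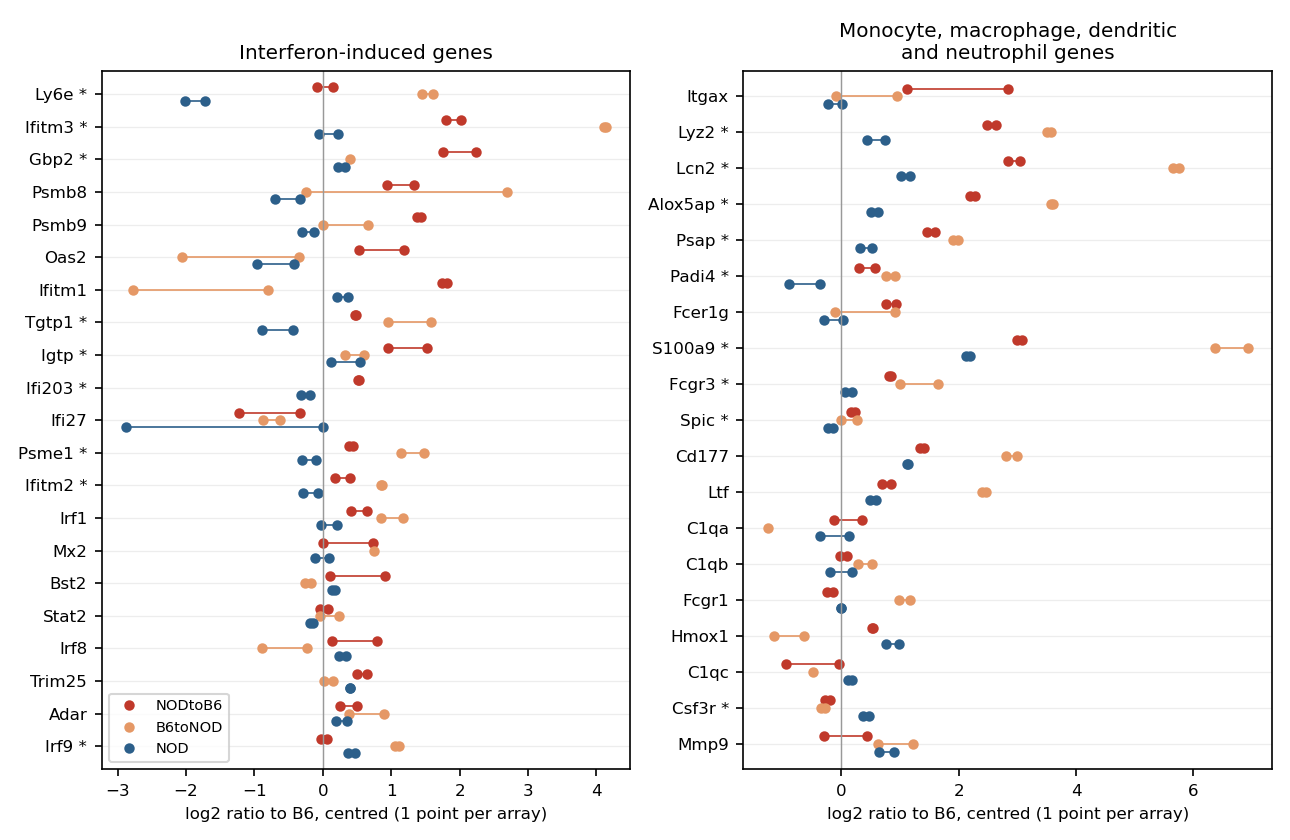
Log2 ratio to B6, centred per array, of the 21 tested interferon-induced genes (left) and of 19 tested myeloid genes (right), 1 point per array, in NODtoB6 (red), B6toNOD (orange) and NOD (blue). Lines join the 2 arrays of a group, and a star marks genes past the threshold for NODtoB6 minus NOD. Ly6e and Ifitm3 show NODtoB6 between NOD and B6toNOD, and S100a9 and Lcn2 are above B6 in all 3 groups and highest in B6toNOD.

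Among genes of antigen presentation, 11 were tested, 3 rose and none fell, 27.3% against 16.5% of all genes. With the NODtoB6 arrays turned, 1 was higher and 2 lower, with a median of -0.26. The class II chain gene H2-Aa was at 1.62 and 1.68 in NODtoB6, at -3.95 on the B6toNOD array that measured it and at -0.09 and -0.67 in NOD. NODtoB6 was thus the only one of these groups above the B6 level, and its difference from NOD was 2.03 ± 0.33 (adjusted p = 0.0098, 4.08-fold). B2m, the light chain of MHC class I, rose by 1.19 ± 0.22 (adjusted p = 0.011) and Ifi30, a reductase that unfolds antigens in lysosomes, by 0.66 ± 0.16 (adjusted p = 0.029). H2-Eb1, a class II chain like H2-Aa, was at 0.65 and 0.57 in NODtoB6 and 0.40 and 0.34 in NOD and did not pass (0.24 ± 0.23, adjusted p = 0.53). The list median was 0.16. B6 and NOD carry different MHC haplotypes. All 3 calls ended without NOD replicate 2 (adjusted p = 0.068 to 0.12), and that of Ifi30 without either NODtoB6 replicate (0.103 and 0.0575). 

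Genes of monocytes, macrophages and dendritic cells that passed were all higher in NODtoB6. Of 12 tested, 5 rose and none fell, 41.7% against 16.5% of all genes, with a median difference of 0.55. Turning the NODtoB6 arrays left none higher and 4 lower, with a median of -0.83. Lyz2, the lysozyme of macrophages and granulocytes, was at 2.64 and 2.48 in NODtoB6, 3.58 and 3.51 in B6toNOD and 0.74 and 0.45 in NOD (1.97 ± 0.13, adjusted p = 0.00045). Alox5ap, which presents arachidonic acid to the leukotriene-forming lipoxygenase, was at 2.20 and 2.28 in NODtoB6, 3.60 and 3.58 in B6toNOD and 0.63 and 0.51 in NOD (1.67 ± 0.10, adjusted p = 0.00035). Both genes were above B6 in all 3 groups, lowest in NOD and highest in B6toNOD, and NODtoB6 was below B6toNOD by 0.98 for Lyz2 and by 1.35 for Alox5ap (adjusted p = 0.00078 and 9.9e-05). The lysosomal saposin precursor Psap rose by 1.10 ± 0.12, the Fc receptor Fcgr3 by 0.72 ± 0.19 and the transcription factor gene Spic, which red pulp macrophages need, by 0.39 ± 0.11. The integrin Itgax of dendritic cells had the largest difference of the list without passing (2.08 ± 0.63, adjusted p = 0.056). The complement genes C1qa, C1qb and C1qc had differences of 0.23, 0.05 and -0.64 and none passed. After quantile normalization the calls of Lyz2, Alox5ap and Psap ended (adjusted p = 0.067 to 0.17). The Fcgr3 and Spic calls ended without any one of the 4 arrays (0.0796 to 0.183), and without NODtoB6 replicate 1 Itgax rose (2.94, 0.0187) and C1qc fell (-1.10, 0.0065).

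Neutrophil genes gave a mixed picture. Of 7 tested, 3 rose, 1 fell and 3 did not pass, 57.1% called against 16.5% of all genes. None was higher and 4 were lower with the NODtoB6 arrays turned, with a median of -1.31. S100a9, a calcium-binding protein abundant in neutrophils, was at 3.09 and 2.99 in NODtoB6, 6.37 and 6.93 in B6toNOD and 2.13 and 2.20 in NOD (0.87 ± 0.17, adjusted p = 0.013). Lcn2, which binds bacterial siderophores, was at 3.04 and 2.84 in NODtoB6, 5.75 and 5.64 in B6toNOD and 1.03 and 1.17 in NOD (1.84 ± 0.35, adjusted p = 0.012). The 2 genes were above B6 on every array of the 3 groups. Padi4, which citrullinates histones, rose by 1.06 ± 0.18 and Csf3r, the receptor for the granulocyte growth factor, fell by 0.66 ± 0.093 (adjusted p = 0.0082 and 0.0047). The list median was 0.24, but -0.44 with arrays scaled to the same spread and -0.35 after quantile normalization, where S100a9 was at -0.44 and -0.23. Lcn2 and S100a9 lost their calls without NOD replicate 1 (adjusted p = 0.055 and 0.0563) and without NOD replicate 2 (0.0638 and 0.0654), Lcn2 also after quantile normalization (0.572). S100a8 was not analysed here.

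Erythroid and haem synthesis genes moved in both directions, and their balance depended on the scaling. Of 19 tested, 5 rose and 1 fell with a median of 0.28, against 2 and 5 with a median of -0.35 when arrays were scaled to the same spread and 2 and 7 with a median of -0.43 after quantile normalization. None was higher and 9 were lower with the NODtoB6 arrays turned, with a median of -0.64. The share called was 31.6%, against 16.5% of all genes. The adult globin gene Hbb-b1 was at 2.57 and 3.09 in NODtoB6, 1.71 and 1.71 in B6toNOD and 3.33 and 3.29 in NOD. It was far above B6 in all 3 groups and did not pass between NODtoB6 and NOD (-0.48 ± 0.18, adjusted p = 0.10), but did so without NODtoB6 replicate 2 (adjusted p = 0.023), with scaled arrays (-2.71, 0.0024) and after quantile normalization (-1.51, 0.00069). The embryonic globin genes Hbb-y (0.72 ± 0.14, 4 probes) and Hba-x (0.68 ± 0.15) rose, but were -0.51 and -0.44 with scaled arrays and -0.51 and -0.66 after quantile normalization, and probes of related globins can bind each other's transcripts. Alas2, the first enzyme of haem synthesis in red cell precursors, was at 2.78 and 2.83 in NODtoB6 and 2.21 and 1.65 in NOD (0.88 ± 0.23, adjusted p = 0.040), but was -0.35 and -0.40 under the same 2 scalings. The ubiquitin ligase gene Trim10 (1.59 ± 0.27) and the carbonic anhydrase gene Car2 (1.56 ± 0.24) rose, and Cpox, an enzyme of haem synthesis, fell by 0.77 ± 0.14. The calls of Trim10, Alas2, Cpox, Hbb-y and Hba-x ended without NOD replicate 2 (adjusted p = 0.0585 to 0.181), those of Trim10 and Hba-x without NOD replicate 1 (0.0536 and 0.0871), that of Hba-x without NODtoB6 replicate 1 (0.0779) and that of Alas2 without either NODtoB6 replicate (0.0992 and 0.127). Without NODtoB6 replicate 2 the list had 4 genes that rose and 4 that fell, with a median of 0.06. Hba-a1 was not analysed here.

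A pair of genes that stood with the globins far above B6 were lower in NODtoB6. Cd200, a surface protein that restrains myeloid cells, was at 2.42 and 2.36 in NODtoB6, 1.55 and 1.55 in B6toNOD and 3.57 and 3.73 in NOD (-1.26 ± 0.093, adjusted p = 0.00062). The nuclear receptor Nr2f2 was at 2.69 and 2.40 in NODtoB6, 1.98 and 1.90 in B6toNOD and 3.52 and 3.51 in NOD (-0.97 ± 0.11, adjusted p = 0.0030). For both genes NODtoB6 lay between B6toNOD and NOD, and no 2 groups overlapped. NODtoB6 was above B6toNOD by 0.84 for Cd200 and 0.61 for Nr2f2 (adjusted p = 0.00038 and 0.0044).

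Among 12 tested genes of T cell identity and receptor signalling, 1 rose and 11 did not pass, 8.33% called against 16.5% of all genes. The median difference was -0.21, and with the NODtoB6 arrays turned none was higher and 3 were lower. The list medians were 0.12 and 0.06 in NODtoB6 and 0.17 and 0.27 in NOD, so both groups were within 0.27 of the B6 T cells of the second channel. The gene that rose was the adaptor Lcp2 (SLP-76, 1.06 ± 0.25, adjusted p = 0.026), and its call ended without either NOD replicate (0.0758 and 0.141). Cd4 was at 0.69 and 1.99 in NODtoB6 and -0.38 and 0.21 in NOD and did not pass (1.42 ± 0.59, adjusted p = 0.16). The costimulatory receptor Cd28 was at 0.56 and 0.65 in NODtoB6, 0.09 and 0.24 in B6toNOD and 0.76 and 0.42 in NOD. Its difference was 0.02 with a 95% interval of -0.31 to 0.34, and the values of the groups overlapped. The receptor chain Cd247 (-0.68 ± 0.46), the kinase Fyn (-0.71 ± 0.21, adjusted p = 0.056, but 0.0025 with scaled arrays) and the costimulatory receptor Icos (0.56 ± 0.87) did not pass. Cd3e, Cd8a, Ctla4, Il2ra and Foxp3 were not analysed here, and none of the 6 tested genes of T cell activation and regulatory T cells passed, among them Tnfrsf9 (4-1BB, -0.44 ± 0.16), which did pass with scaled arrays (adjusted p = 0.0070) and after quantile normalization (0.0076).

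Among 10 tested genes of T cell homing and egress, 1 rose and 1 fell, 20% called against 16.5% of all genes. With the NODtoB6 arrays turned, none was higher and 4 were lower. The integrin chain Itgb7, part of the gut homing receptor, was at 0.89 and 0.81 in NODtoB6, 0.16 and -0.03 in B6toNOD and 0.11 and -0.26 in NOD (0.92 ± 0.14, adjusted p = 0.0055). The chemokine receptor Ccr7, which guides naive T cells into lymph nodes, was at -0.49 and -0.33 in NODtoB6 and 0.45 and 0.22 in NOD (-0.75 ± 0.13, adjusted p = 0.011). Both calls ended without centring (adjusted p = 0.0638 and 0.0672) and with only the 4 arrays fitted (0.0657 and 0.0712). Among 6 tested genes of cytotoxic and NK cells 2 rose and 2 fell, 66.7% called against 16.5% of all genes. Turning the NODtoB6 arrays gave 2 higher and none lower. Gzmm, a granule protease, was at -4.0 and -3.44 in NODtoB6, -1.16 and -1.50 in B6toNOD and -0.52 and -0.25 in NOD (-3.33 ± 0.57, adjusted p = 0.011, 10.1-fold lower). The activating receptor Klrk1 (NKG2D) rose by 1.02 ± 0.12 and the transcriptional regulator Id2 by 0.88 ± 0.23, while the T-box factor Eomes fell by 0.53 ± 0.10. Klrk1 and Eomes missed the threshold after the running median was subtracted (adjusted p = 0.0706 and 0.612). Gzmm (adjusted p = 0.077) and Id2 (0.205) lost their calls without NOD replicate 2, Id2 and Eomes without NOD replicate 1 (0.0533 and 0.0566) and without NODtoB6 replicate 2 (0.141 and 0.05), and Id2 without NODtoB6 replicate 1 (0.0597).

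Markers of other spleen cells were compared in the same way. Among 5 tested plasma cell genes 1 rose, 20% against 16.5% of all genes, and the turned NODtoB6 arrays gave 1 higher and 1 lower. The gene that rose was Jchain, the joining chain of secreted IgM and IgA. It was at 2.79 and 3.23 in NODtoB6, 1.43 and 0.64 in B6toNOD and 0.63 and 0.72 in NOD (2.33 ± 0.28, adjusted p = 0.0031, 5.03-fold). Jchain was thus above both other groups in NODtoB6, and its difference from B6toNOD was 1.98 (adjusted p = 0.0013). Xbp1, a transcription factor of secretory cells, did not pass (0.72 ± 0.44, adjusted p = 0.31) except without NODtoB6 replicate 1 (0.0428). Of 7 B cell genes the signalling kinase Btk fell by 1.02 ± 0.19, and Cd24a (0.58 ± 0.14) and Bcl11a (0.47 ± 0.11) rose. The share called was 42.9% against 16.5% of all genes, and with the NODtoB6 arrays turned none was higher and 3 were lower. Ighm, the IgM heavy chain, was at 1.0 and 1.23 in NODtoB6 and 0.93 and 0.86 in NOD and did not pass (0.22 ± 0.27), and was -0.99 after quantile normalization (adjusted p = 0.0075). The 3 B cell calls ended without NODtoB6 replicate 1 (adjusted p = 0.055 to 0.0723) or NOD replicate 2 (0.0863 to 0.14), and those of Cd24a and Bcl11a also without NODtoB6 replicate 2 (0.0735 and 0.0848) or NOD replicate 1 (0.0586 and 0.0709). Cd24a and Bcl11a also missed the threshold after the running median was subtracted (adjusted p = 0.138 and 0.887), and Cd24a with scaled arrays (0.259). Cd24a was at -0.10 after quantile normalization, and 2 of its 3 probes had a positive difference. Of 16 stromal and endothelial genes, which in a marrow recipient belong largely to the host, only Mgp, an extracellular matrix protein, passed (0.78 ± 0.12, adjusted p = 0.0063). This was a share of 6.25% against 16.5% of all genes, and 2 were higher and 3 lower with the NODtoB6 arrays turned. Col1a1 was at -0.07 and 0.15 in NODtoB6 and -0.12 and 0.15 in NOD. Col1a2 did not pass (-1.0 ± 0.46) except without NODtoB6 replicate 1 (adjusted p = 0.0194). The platelet genes Ppbp (1.20 ± 0.49) and Itga2b (-0.32 ± 0.33) did not pass. Of 4 platelet genes with probes, only these 2 had a value on all 4 arrays, with a median of 0.44. When at least 1 value in each group was enough, 4 were tested and the median was 1.75. Most of these markers did not pass, and whether any had a part in the interferon, class II and metabolic results was not tested.

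Of 25 tested immediate-early and NF-kappaB feedback genes, 8 rose, 4 fell and 13 did not pass, 48% called against 16.5% of all genes, and the median difference was -0.10. With the NODtoB6 arrays turned, 5 were higher and 9 lower. The phosphatase Dusp1, which switches off MAP kinases, was at 2.16 and 2.27 in NODtoB6, 1.27 and 1.18 in B6toNOD and 0.42 and 0.35 in NOD (1.83 ± 0.099, adjusted p = 0.00018). Zfp36, which destabilises cytokine transcripts, was at 1.90 and 1.82 in NODtoB6, 0.94 and 0.73 in B6toNOD and -0.06 and -0.27 in NOD (2.03 ± 0.20, adjusted p = 0.0042). Both were highest in NODtoB6 and near the B6 level in NOD. The AP-1 subunit Fos was at 0.60 and 0.41 in NODtoB6, 1.10 and 1.16 in B6toNOD and -0.95 and -0.86 in NOD (1.41 ± 0.10, adjusted p = 0.00062), so that NOD lay below B6 and both transfer groups above. Its partner Jun rose by 0.60 ± 0.13 (adjusted p = 0.019), and the antiproliferative gene Btg2 by 1.01 ± 0.11. In the opposite direction, the transcription factor Klf4 was at -2.03 and -2.86 in NODtoB6, 0.45 and 0.34 in B6toNOD and 0.10 and 0.24 in NOD (-2.62 ± 0.25, adjusted p = 0.0014). The AP-1 subunit Jund fell by 2.05 ± 0.56 (adjusted p = 0.049) and the NF-kappaB subunit Rela by 0.70 ± 0.092. The calls of Jun and Jund ended without each of the 4 arrays (adjusted p = 0.0537 to 0.203).

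Of 35 tested chaperone genes 8 rose and 1 fell, 25.7% against 16.5% of all genes, with a median of 0.21. Turning the NODtoB6 arrays gave 10 higher and 1 lower. Hsph1, a co-chaperone of the Hsp70 family, was at -1.06 and -0.88 in NODtoB6, -0.22 and -0.07 in B6toNOD and -2.24 and -2.56 in NOD (1.43 ± 0.21, adjusted p = 0.0049). It was below B6 in all 3 groups and lowest in NOD. The constitutive Hsp70 gene Hspa8, measured by 4 probes that all had the same sign, was at 0.16 and 0.04 in NODtoB6, 2.0 and 1.92 in B6toNOD and -0.79 and -0.80 in NOD (0.90 ± 0.088, adjusted p = 0.0016). The disulphide isomerase Pdia4 rose by 1.11 ± 0.13 and the Hsp90 activator Ahsa1 by 1.10 ± 0.22. The Ahsa1 call ended without NODtoB6 replicate 2 or either NOD replicate (adjusted p = 0.0619 to 0.0984). Among 37 proteasome subunits 5 rose and 1 fell, 16.2% against 16.5% of all genes, with a median of 0.31. With the NODtoB6 arrays turned, 1 was higher and 4 lower, with a median of -0.29. The catalytic subunit Psmb5 was at 0.67 and 0.69 in NODtoB6, 1.33 and 1.08 in B6toNOD and -0.47 and -0.58 in NOD (1.21 ± 0.19, adjusted p = 0.0063). Psma5 (1.12 ± 0.24) and Psma6 (1.07 ± 0.24) of the core ring rose, and Psmd3 of the regulatory particle fell by 0.79 ± 0.15. Psma5 and Psma6 lost their calls without NODtoB6 replicate 2 (adjusted p = 0.0513 and 0.0881) and without NOD replicate 2 (0.12 and 0.117). Psma5 did so without NODtoB6 replicate 1 (0.0682), and Psma6 without NOD replicate 1 (0.0676).

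Of 39 tested enzymes on the list of glycolysis and the citric acid cycle 7 rose and none fell, with a median of 0.25. The list also holds Taldo1 of the pentose phosphate pathway, which is among the 7. The share called, 17.9%, was near the 16.5% of all genes, and with the NODtoB6 arrays turned 1 was higher and 8 lower, with a median of -0.175. Pgk1, phosphoglycerate kinase, was at 1.02 and 1.04 in NODtoB6, 2.78 and 2.62 in B6toNOD and -0.29 and -0.68 in NOD (1.52 ± 0.22, adjusted p = 0.0049). Lactate dehydrogenase Ldha was at 0.87 and 0.67 in NODtoB6, 1.83 and 1.53 in B6toNOD and -0.46 and -0.79 in NOD (1.40 ± 0.15, adjusted p = 0.0025). In both genes NODtoB6 lay between the other groups without overlap. The pentose phosphate enzyme Taldo1 rose by 0.99 ± 0.097, Tpi1 by 0.63 ± 0.13, Pkm by 0.55 ± 0.097 and Gapdh by 0.55 ± 0.10. These calls of Tpi1, Pkm and Gapdh ended without NOD replicate 2 (adjusted p = 0.0504 to 0.0604), and that of Tpi1 without NOD replicate 1 (0.0685). Pfkp, a phosphofructokinase, was at 1.50 and 1.11 in NODtoB6 and -1.63 and -3.45 in NOD (3.84 ± 0.58, adjusted p = 0.011), and neither B6toNOD array measured it. Of 59 nuclear genes of oxidative phosphorylation, 9 rose and 2 fell, 18.6% against 16.5% of all genes, with a median of 0.22. Turning the NODtoB6 arrays gave 1 higher and 20 lower, with a median of -0.35. The complex I subunit Ndufv1 was at 1.30 and 1.30 in NODtoB6, -0.01 and 0.34 in B6toNOD and -0.38 and -0.39 in NOD (1.69 ± 0.18, adjusted p = 0.0022). Atp5h of the ATP synthase (1.03 ± 0.25) and Ndufb9 of complex I (0.97 ± 0.22) rose, while Cox7c of cytochrome c oxidase fell by 0.97 ± 0.15. These last 3 calls ended without NOD replicate 2 (adjusted p = 0.0514 to 0.165), and Atp5h and Ndufb9 lost theirs without NODtoB6 replicate 2 (0.1 and 0.087). Atp5h did so as well without NODtoB6 replicate 1 (0.0714) and without NOD replicate 1 (0.0619).

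Calls among genes of cell division went in both directions. Of 59 tested, 6 rose, 4 fell and 49 did not pass, a share of 16.9% called that was near the background of 16.5%. The median difference was 0.18 against -0.03 over all genes, and 38 differences (64.4%) were positive, against 48.1% of all genes. With the NODtoB6 arrays turned, 5 were higher and 4 lower, with a median of -0.03. Among those that rose were the microtubule regulator Stmn1 (1.31 ± 0.13, adjusted p = 0.0016), the replication clamp Pcna (1.15 ± 0.18) and the helicase subunit Mcm6 (0.80 ± 0.17). The mitotic kinase Plk1 was at -4.0 and -1.96 in NODtoB6, 1.56 and 1.35 in B6toNOD and -0.11 and 0.32 in NOD (-3.08 ± 0.65, adjusted p = 0.017). Ube2c, which works with the anaphase-promoting complex, fell by 1.29 ± 0.15 and the chromosomal passenger Birc5 by 1.19 ± 0.25. The Plk1 and Birc5 calls ended without NOD replicate 1 (adjusted p = 0.0535 and 0.0937) and NOD replicate 2 (0.106 and 0.0966), and that of Birc5 without NODtoB6 replicate 1 (0.0799). The Mcm6 call ended without NODtoB6 replicate 2 (0.0731), NOD replicate 1 (0.0686) or NOD replicate 2 (0.0917). Among 20 apoptosis regulators Api5 rose by 0.91 ± 0.18 and Pdcd6 fell by 0.54 ± 0.11, 10% called against 16.5% of all genes. None was higher and 3 were lower with the NODtoB6 arrays turned. Of 27 cytokine, chemokine and receptor genes, 2 fell and none rose, 7.41% against 16.5% of all genes. Turning the NODtoB6 arrays gave 1 higher and 4 lower. The TGF-beta receptor Tgfbr2 was at -0.17 and -0.27 in NODtoB6, -0.23 and -0.42 in B6toNOD and 0.66 and 0.59 in NOD (-0.85 ± 0.10, adjusted p = 0.0031), so both transfer groups lay below B6 and NOD above. The interleukin 4 receptor chain Il4ra fell by 0.37 ± 0.11 (adjusted p = 0.046). The Api5, Pdcd6 and Il4ra calls ended without NODtoB6 replicate 2 or NOD replicate 2 (adjusted p = 0.0533 to 0.207). Pdcd6 and Il4ra also lost theirs without NOD replicate 1 (0.0562 and 0.0874) and Il4ra without NODtoB6 replicate 1 (0.0688).

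List medians were small for ribosomal proteins (0.13), translation factors (0.12) and splicing factors (-0.02), although single genes such as Eif1a moved further. Of 71 cytosolic ribosomal proteins 11 rose and 4 fell, 21.1% against 16.5% of all genes, with a median of 0.13. Turned, the NODtoB6 arrays gave 18 higher and 3 lower. Rpl37a, with 3 probes of the same sign, rose by 0.66 ± 0.12 and Rps15a by 0.63 ± 0.14, while Rps15 fell by 0.85 ± 0.16 and Rps19 by 0.69 ± 0.12. All 4 calls ended without NOD replicate 2 (adjusted p = 0.0502 to 0.0962), that of Rps15 without NOD replicate 1 (0.0501) and that of Rps15a without NODtoB6 replicate 1 (0.0738). Of 39 translation factors 4 rose and 3 fell, 17.9% against 16.5% of all genes, and with the NODtoB6 arrays turned none was higher and 3 were lower. Those that rose were the initiation factor 3 subunits Eif3h (1.31 ± 0.22), Eif3k (0.78 ± 0.15), Eif3e (0.55 ± 0.13) and Eif3d (0.51 ± 0.10). The initiation factor Eif1a fell by 1.58 ± 0.43 and the exchange factor subunit Eif2b2 by 1.14 ± 0.30. Without NOD replicate 2 the calls of Eif1a, Eif3h, Eif2b2 and Eif3k ended (adjusted p = 0.0514 to 0.176), without NOD replicate 1 those of Eif1a and Eif2b2 (0.133 and 0.131), and that of Eif1a without either NODtoB6 replicate (0.0834 and 0.153). Eif3e and Eif3d lost theirs without NODtoB6 replicate 2 (0.0861 and 0.0551) and without NOD replicate 2 (0.119 and 0.0883).

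Of 52 splicing factors and hnRNPs 5 rose and 7 fell, 23.1% called against 16.5% of all genes. With the NODtoB6 arrays turned, 3 were higher and 10 lower. The hnRNP gene Hnrnpa2b1, with 3 probes of the same sign, was at 2.25 and 0.80 in NODtoB6, 1.11 and 0.90 in B6toNOD and -0.75 and -0.55 in NOD (2.17 ± 0.52, adjusted p = 0.026). Hnrnpdl (-0.99 ± 0.12), Hnrnpr (-0.85 ± 0.16) and the small nuclear ribonucleoprotein gene Snrpe (-0.75 ± 0.13) were lower. Of 69 chromatin genes 4 rose and 4 fell, 11.6% against 16.5% of all genes. Turning the NODtoB6 arrays gave 5 higher and 5 lower. The histone methyltransferase Setd1a rose by 1.55 ± 0.19 and the bromodomain protein Brd7 by 1.03 ± 0.24, while the deacetylase Hdac3 fell by 1.08 ± 0.26 and the methyltransferase Nsd1 by 1.01 ± 0.19. The calls of Hnrnpa2b1, Hnrnpr and Snrpe (adjusted p = 0.065 to 0.112) and of Hdac3, Brd7 and Nsd1 (0.0844 to 0.117) ended without NOD replicate 2. Hnrnpa2b1 and Hdac3 also lost theirs without NOD replicate 1 (0.107 and 0.108), Hnrnpa2b1 and Brd7 without NODtoB6 replicate 1 (0.0869 each) and Hdac3 without NODtoB6 replicate 2 (0.119).

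**Figure D3:**
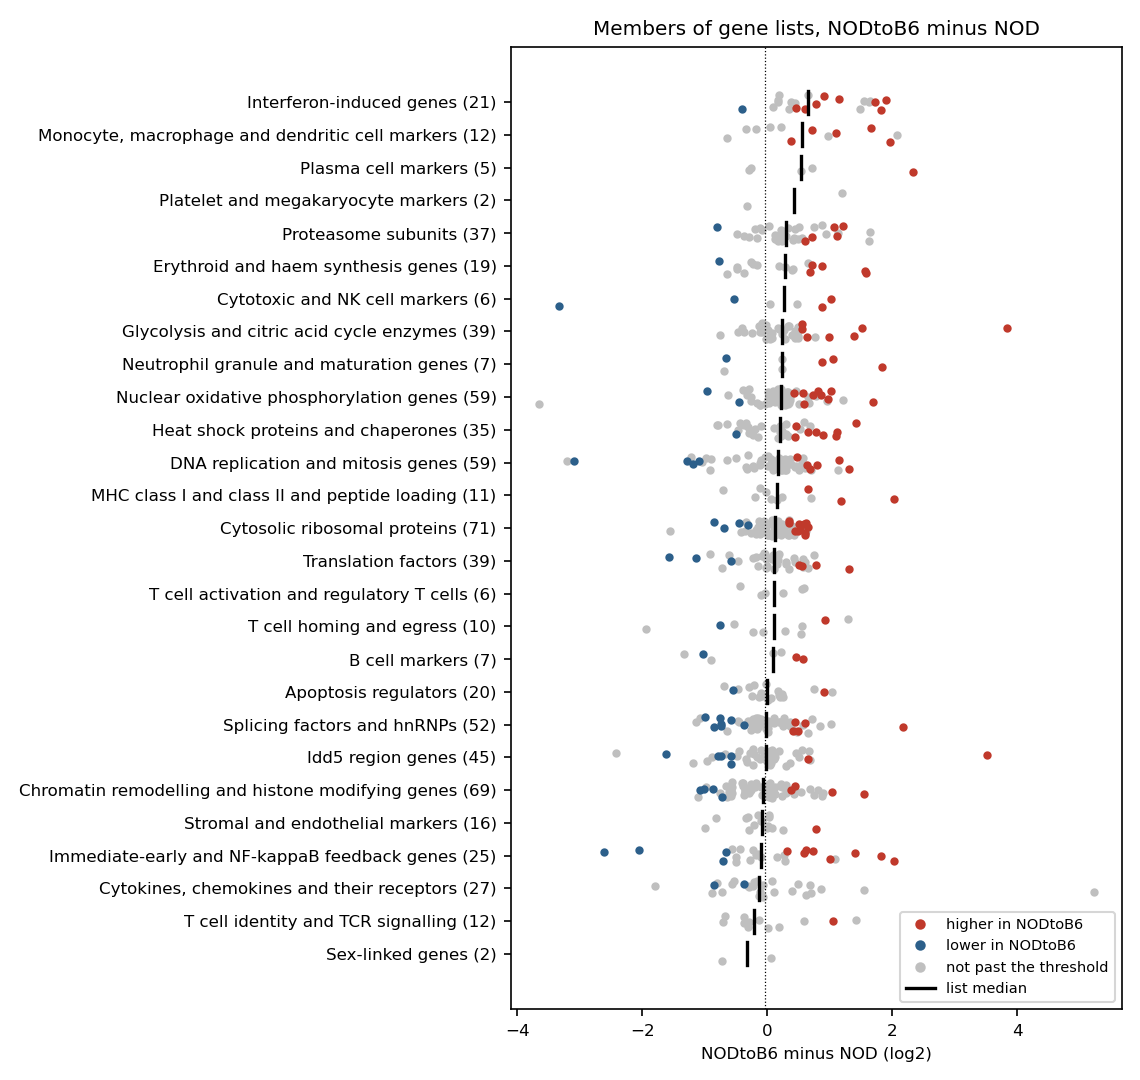
NODtoB6 minus NOD on the log2 scale for each tested member of 27 gene lists, with the number tested in brackets. Red points rose, blue points fell, grey points did not pass, the black bar is the list median and the dotted line the median of all genes (-0.03). Lists are ordered by their median, from interferon-induced genes at 0.66 to 2 sex-linked genes at -0.33.

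Idd5 is an interval of chromosome 1 in which B6 and NOD alleles affect diabetes. Its genes have the NOD genotype in marrow-derived cells of both groups, and host cells differ in genotype. Of 45 tested, 2 rose and 5 fell, 15.6% against 16.5% of all genes, with a median of -0.02. With the NODtoB6 arrays turned, 8 were higher and 6 lower. Atic, an enzyme of purine synthesis, was at -0.51 and 0.27 in NODtoB6, -0.14 and -0.85 in B6toNOD and -4.79 and -2.51 in NOD. The gene was near B6 in both transfer groups and far below it in NOD (3.53 ± 0.73, adjusted p = 0.020, 11.5-fold). Its difference between NODtoB6 and B6toNOD did not pass (0.37, adjusted p = 0.73). Stradb, a regulator of the kinase LKB1, was at -1.78 and -1.66 in NODtoB6, -0.08 and 0.19 in B6toNOD and -0.27 and 0.06 in NOD (-1.62 ± 0.17, adjusted p = 0.0023), and 1 of its 3 probes had the opposite sign. Fam126b fell by 0.79 ± 0.087 and the splicing kinase Clk1 by 0.74 ± 0.14. The Atic call ended without NODtoB6 replicate 2 (adjusted p = 0.0877) and that of Clk1 without NOD replicate 2 (0.0749).

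The largest differences were in single probes of genes with varied roles. Each of the 15 genes named in either direction rests on 1 probe measured on the 4 arrays. Cdc16, a subunit of the anaphase-promoting complex, was at 5.10 and 4.15 in NODtoB6 and -1.04 and -0.51 in NOD (5.40 ± 0.36, adjusted p = 0.00078, 42.2-fold). On the B6toNOD array that measured it, Cdc16 was at -1.32, so it was high in NODtoB6 alone of the 3 groups. Ints8, a subunit of the Integrator complex that processes small nuclear RNAs, was at 3.22 and 4.91 in NODtoB6, -2.30 and -0.49 in B6toNOD and -0.53 and -1.07 in NOD (4.87 ± 0.97, adjusted p = 0.014). The serine protease Prss23 was at 2.10 and 2.15 in NODtoB6 and -1.61 and -0.82 in NOD (3.34 ± 0.30, adjusted p = 0.0019). Ppp3cc, a catalytic subunit of calcineurin, was at 1.24 and 3.61 in NODtoB6, -0.04 and 2.03 in B6toNOD and -0.99 and -1.40 in NOD (3.62 ± 0.91, adjusted p = 0.038). Its 2 NODtoB6 values lay further apart than the groups' nearest values did from each other.

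Further genes that rose were the lyase gene Phykpl (3.21 ± 0.38), the dynein chain Dync1i1 (3.05 ± 0.60), Plpbp (2.81 ± 0.68), the homeobox gene Evx2 (2.78 ± 0.67), Morc4 (2.65 ± 0.15), Vps53 of a Golgi tethering complex (2.63 ± 0.54), the polarity protein Mpp5 (2.51 ± 0.39), the poly(A) polymerase Tent5c (2.36 ± 0.43) and the autophagy gene Atg16l2 (2.36 ± 0.44). Pfkp and Atic, described above, complete the 15. Of these 15, 8 lost their call without NOD replicate 2 (adjusted p = 0.0819 to 0.181), 7 without NODtoB6 replicate 2 (0.0512 to 0.125), 6 without NOD replicate 1 (0.0572 to 0.149) and 3 without NODtoB6 replicate 1 (0.0512 to 0.0766). Cdc16, Prss23 and Morc4 passed under every alternative in which they were tested that keeps the direction of the arrays.

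Among the 15 that fell most, the receptor tyrosine kinase Erbb3 was at -7.09 and -3.37 in NODtoB6, -0.66 and -1.59 in B6toNOD and 0.07 and 0.54 in NOD (-5.53 ± 1.01, adjusted p = 0.010). Isca1, which assembles mitochondrial iron-sulphur clusters, was at -3.40 and -5.81 in NODtoB6, -1.24 and -1.28 in B6toNOD and 0.48 and 0.81 in NOD (-5.25 ± 0.88, adjusted p = 0.0078). The NODtoB6 replicates of these genes were far apart, yet each was below every B6toNOD and NOD value. Rpusd1, a pseudouridine synthase gene, was at -4.18 and -5.42 in NODtoB6, -0.69 and -1.19 in B6toNOD and -0.07 and 0.34 in NOD (-4.93 ± 0.44, adjusted p = 0.0033). Dglucy, a mitochondrial D-glutamate cyclase, was at -3.58 and -2.77 in NODtoB6, -1.17 and -0.92 in B6toNOD and 0.18 and 0.36 in NOD (-3.44 ± 0.25, adjusted p = 0.00062). Here B6toNOD was also lower than NOD (-1.31, adjusted p = 0.0054) and above NODtoB6. The mitochondrial import protein Chchd4 (-4.29 ± 0.65), the kinetochore protein Zwilch (-3.87 ± 0.54) and the aminopeptidase Dnpep (-3.65 ± 0.54) were lower in NODtoB6 and between 0.21 and 1.36 in B6toNOD, above the B6 level.

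The others were the transporter Slco6c1 (-5.07 ± 1.10), the sorting nexin Snx6 (-4.33 ± 0.97), Arhgap12 (-4.13 ± 0.83), 4930467E23Rik (-4.0 ± 0.85), the kinase genes Dclk3 (-3.65 ± 0.70) and Map2k6 (-3.50 ± 1.01), the importin Kpna7 (-3.45 ± 0.38) and Prr14l (-3.43 ± 0.34). Of the 15, 8 lost their call without NOD replicate 2 (adjusted p = 0.0583 to 0.192), 4 without NOD replicate 1 (0.0643 to 0.145), Slco6c1 without NODtoB6 replicate 2 (0.0865) and Map2k6 without NODtoB6 replicate 1 (0.0948). Rpusd1, Kpna7, Dglucy and Prr14l passed under every such alternative.

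**Figure D4:**
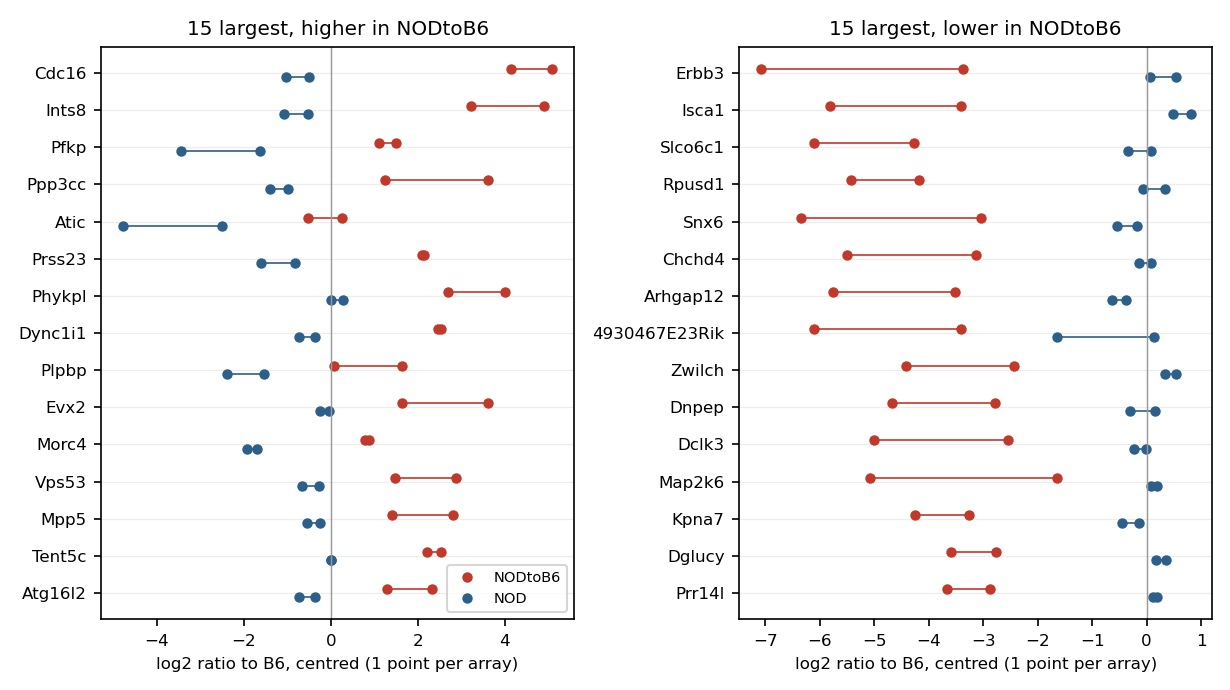
Log2 ratio to B6, centred per array, of the 15 genes with the largest positive (left) and the 15 with the largest negative (right) NODtoB6 minus NOD difference among genes past the threshold, 1 point per array, NODtoB6 in red and NOD in blue. Lines join the 2 arrays of a group. The NOD arrays lie near 0 for most genes, whereas the NODtoB6 arrays are far from 0 and often apart from each other, as for Erbb3 at -7.09 and -3.37.

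The sex-linked genes Xist and Eif2s3y, of the inactive X chromosome and the Y chromosome, did not differ past the threshold. Xist was at -0.31 and -0.32 in NODtoB6 and 0.32 and 0.48 in NOD (-0.72 ± 0.46, adjusted p = 0.33). Eif2s3y was at 0.22 and 0.29 in NODtoB6 and 0.29 and 0.10 in NOD (0.06 ± 0.14, adjusted p = 0.82).

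The number of genes past the threshold varied with the processing, from 249 with only the 4 arrays fitted to 2297 with arrays scaled to the same spread, as the plot of counts by setting shows. Of the 111 named genes past the threshold, 23 passed with the same sign under every one of the 17 alternatives in which they were tested and the direction of the arrays was kept. They are Cdc16, Prss23, Morc4, Rpusd1, Kpna7, Dglucy, Prr14l, Ly6e, Ifitm3, Gbp2, Jchain, Dusp1, Zfp36, Fos, Klf4, Hsph1, Stmn1, Pgk1, Taldo1, Ndufv1, Psmb5, Stradb and Cd200. With the sign of both NODtoB6 arrays turned, 1506 genes passed and 638 of them were among the 1344.

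**Figure D5:**
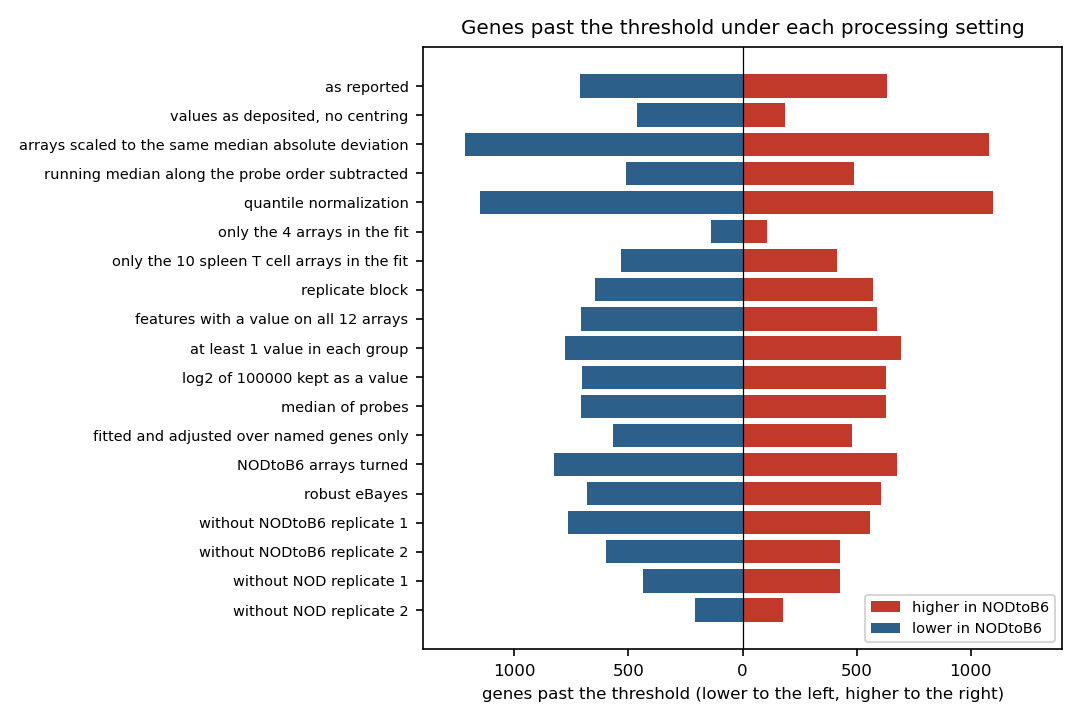
Number of genes past the threshold for NODtoB6 minus NOD under the reported setting (top) and 18 alternatives, those higher in NODtoB6 to the right in red and those lower to the left in blue. Scaling and quantile normalization give the longest bars (2297 and 2251 genes), and the fit of only the 4 arrays (249) and the fit without NOD replicate 2 (385) the shortest.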

How the data were processed

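RNA of spleen T cells was measured on 2-colour cDNA arrays against B6 spleen T cell RNA, and 2 NODtoB6 and 2 NOD arrays were compared. The deposited values are log2 ratios, as their signs and spread show. The direction, experimental over B6, follows from the dyes per the labels for the NOD arrays and was assumed for the 4 marrow transfer arrays. Scanner, background correction and normalization by the authors are not stated in the labels. Cells equal to the log2 of 100000, 41 in the NOD arrays and 0 in the NODtoB6 arrays, were treated as missing. Each array was centred on its median. Of 20736 probes, 13033 had 1 gene symbol, 312 several and 7391 none in the platform annotation, and 12850 symbols were updated by gene ID. Probes with 1 symbol were averaged per gene, and unnamed probes were kept single. Of 8708 genes, 540 lacked a value on at least 1 of the 4 arrays, 456 of them on a NODtoB6 array and 108 on a NOD array.

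A model with 6 group means was fitted to all 12 arrays with limma 3.58.1 (R 4.3.3, lmFit and eBayes), so that the other 8 arrays added to the estimate of the spread. These were 2 arrays each of B6toNOD, NOD.H2h4 and B6.NODIdd1,5 spleen T cells and of B6.NODIdd1,5 kidney. With only the 10 spleen T cell arrays in the fit, 948 genes passed instead of 1344. The p-values were adjusted over 15029 features with a threshold of 0.05. The labels number the replicates 1 and 2 in each group, and deviations of same-numbered NODtoB6 and NOD arrays correlated by 0.023, so the numbers were not taken as pairs. The fit was tested on simulated data. Named were the 15 genes with the largest difference in each direction among those past the threshold whose groups did not overlap, up to 4 examples from each of 27 lists, and a set of fixed names. A further 34 genes were named after their values were seen, 24 of them past the threshold. Genes, lists and members were chosen with earlier results of these data known. Promoter windows are from RefSeq. No depth applies to arrays, and their number limits the precision.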

Additional observations from a re-analysis of the deposited data

How the results depend on the processing

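The count of 1344 genes became 646 without centring, 2297 with arrays scaled to the same median absolute deviation, 2251 after quantile normalization and 249 with only the 4 arrays fitted. It ranged from 385 to 1325 when each of the 4 arrays was left out in turn, with 862 without NOD replicate 1 and 385 without NOD replicate 2. The other 9 alternatives gave 948 to 1506 genes. Same-numbered arrays were not shown to be pairs, and a fit with the replicate number as a block (replicate block) called 1220 genes. Of the 111 named genes past the threshold, the number that missed it was 78 with only the 4 arrays, 60 without NOD replicate 2, 33 without NOD replicate 1, 32 without centring, 28 without NODtoB6 replicate 2, 22 after the running median, 21 without NODtoB6 replicate 1, 16 with the 10 spleen T cell arrays, 6 each under quantile normalization, the block and the fit to named genes only, 3 with robust eBayes and 1 after scaling. After quantile normalization Cd24a turned to -0.10, S100a9 to -0.23 and Alas2 to -0.40, and after scaling S100a9 turned to -0.44 and Alas2 to -0.35; the cause was not tested. Turning the sign of both NODtoB6 arrays, whose dyes the labels do not give, changed the sign of these named genes past the threshold, and of Cd28 and H2-Eb1, which passed only then: Cdc16 -3.85, Ints8 -3.26, Ppp3cc -1.23, Prss23 -0.91, Phykpl -3.50, Dync1i1 -1.96, Evx2 -2.48, Vps53 -1.72, Mpp5 -1.72, Tent5c -2.38, Atg16l2 -1.28, Erbb3 4.92, Isca1 3.96, Slco6c1 5.32, Rpusd1 4.67, Snx6 5.06, Chchd4 4.34, Arhgap12 5.14, 4930467E23Rik 5.51, Zwilch 2.98, Dnpep 3.80, Dclk3 3.90, Map2k6 3.22, Kpna7 4.05, Dglucy 2.91, Prr14l 3.13, Lcp2 -1.59, Itgb7 -0.78, Ccr7 0.0702, Gzmm 4.10, Klrk1 -0.00312, Id2 -0.28, Eomes 0.56, Cd24a -1.65, Bcl11a -0.67, Jchain -3.69, Lcn2 -4.04, S100a9 -5.20, Lyz2 -3.15, Alox5ap -2.81, Psap -1.95, Fcgr3 -0.95, Trim10 -2.15, Car2 -0.19, Alas2 -4.73, Cpox 0.11, Ifitm3 -1.99, Gbp2 -2.27, H2-Aa -1.27, B2m -0.43, Ifi30 -0.0942, Klf4 2.28, Jund 3.87, Zfp36 -1.70, Dusp1 -2.60, Pdia4 -0.83, Ahsa1 -0.11, Plk1 2.87, Stmn1 -1.55, Ube2c 0.11, Birc5 1.44, Api5 -0.16, Pdcd6 0.0232, Rps15 0.75, Rps19 0.48, Eif1a 1.46, Eif2b2 0.46, Eif3k -0.32, Ndufv1 -0.92, Atp5h -0.51, Ndufb9 -0.98, Cox7c 0.69, Pgk1 -0.54, Ldha -0.15, Taldo1 -1.88, Psmb5 -0.15, Psma5 -0.40, Psma6 -0.32, Psmd3 0.17, Hnrnpa2b1 -0.88, Hnrnpr 0.15, Snrpe 0.36, Setd1a -1.86, Hdac3 0.0222, Nsd1 0.61, Stradb 1.82, Fam126b 0.50, Cd28 -1.20, H2-Eb1 -0.98, Jun -0.0187. Named genes past the threshold in neither direction also changed sign, namely Cd247 (0.35), Cd4 (-1.26), Xbp1 (-0.78), Ppbp (-1.52), Col1a2 (1.47), Col1a1 (-0.06) and Eif2s3y (-0.45). Of the 24 further genes past the threshold, 17 missed it with only the 4 arrays, 13 without centring and 13 without NOD replicate 2. Of all 34 further genes, 21 changed sign with the NODtoB6 arrays turned and passed before or after, among them Igtp (-1.57), Hbb-y (-4.73), Hba-x (-4.38), Gapdh (-1.15), Pkm (-0.76), Tpi1 (-0.81) and Btg2 (-0.73). The number of arrays, 2 per group, limits what could be detected.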

Other observations

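Among the genes with the lowest adjusted p-values, some of those on no gene list are described here, chosen after their values were seen, while Dusp1, Alox5ap, Lyz2, Fos and Ifitm3 are on lists. With the NODtoB6 arrays turned, Agpat1 was at 2.25, Naxe at 2.43, Igf2r at 3.17, Grwd1 at -1.29, Anxa2 at -2.43 and Tnip1, which then missed the threshold, at -0.30. Spryd7 was at -0.54 and -0.76 in NODtoB6, 1.12 and 1.04 in B6toNOD and 2.39 and 2.23 in NOD (-2.96 ± 0.11, SE, limma, adjusted p = 5.7e-05). It was above B6 in both groups of NOD mice and below B6 in NODtoB6. Agpat1, an acyltransferase of phospholipid synthesis, was at -2.32 and -2.56 in NODtoB6, 1.55 and 1.41 in B6toNOD and 0.10 and 0.28 in NOD (-2.63 ± 0.12, adjusted p = 0.00010). Naxe, which repairs damaged NADH, was at -2.72 and -2.69 in NODtoB6, 1.23 and 1.48 in B6toNOD and 0.08 and 0.47 in NOD (-2.97 ± 0.15, adjusted p = 0.00013). For Agpat1 and Naxe the marrow transfer groups lay on opposite sides of NOD.

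Igf2r, which carries lysosomal enzymes and binds insulin-like growth factor 2, was at -3.16 and -3.42 in NODtoB6, 0.08 and 0.06 in B6toNOD and -0.01 and 0.26 in NOD (-3.42 ± 0.25, adjusted p = 0.00062). Tnip1, which restrains NF-kappaB signalling, was at -0.53 and -0.68 in NODtoB6, -0.50 and -0.59 in B6toNOD and 0.82 and 1.0 in NOD (-1.52 ± 0.11, adjusted p = 0.00062). Tnip1 was thus below B6 in both transfer groups and above B6 in NOD. Grwd1, a ribosome biogenesis gene, was at 1.65 and 1.70 in NODtoB6, 0.26 and 0.15 in B6toNOD and -0.41 and -0.36 in NOD (2.06 ± 0.12, adjusted p = 0.00029). The membrane-binding protein Anxa2 was at 1.90 and 1.92 in NODtoB6, 2.14 and 2.06 in B6toNOD and 0.61 and 0.43 in NOD (1.39 ± 0.10, adjusted p = 0.00062). Each of these genes rests on 1 probe.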
